A study of Mus musculus with 3 samples.

Results

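The genes of the TGF-beta, Nodal and BMP pathway described here are 49 named mouse genes: 13 ligands, 13 receptors and co-receptors, 7 Smads, 12 antagonists and ligand-binding proteins, and 4 targets of the Id family. They were found as the 74 non-control probes that carry their gene names in the files of all 3 arrays, out of 41174 probes and 27687 gene labels on the array. Cy3-labelled total RNA of mouse cells was hybridised to Agilent arrays of the mouse genome in a single colour, with 1 array for each of 3 groups. The groups were mouse embryonic fibroblasts (MEF, primary cells grown from embryos) labelled p53-null, embryonic stem (ES) cells, which are pluripotent cells of the early embryo, and MEF described in the design text as p53 wild type. A Nanog-GFP reporter was carried by all 3, in which the fluorescent protein reports Nanog activity, and the labels used here do not name the p53 allele, the strain, the embryo stage, the number of embryos or the culture conditions. The study concerns p53 in the making of induced pluripotent stem cells from fibroblasts, and its design sets p53-null MEF against MEF and ES cells against MEF.

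Ligands of this family bind pairs of type I and type II receptor kinases, which phosphorylate receptor Smads that enter the nucleus with Smad4. TGF-beta, activin and Nodal ligands act through Smad2 and Smad3, whereas BMP ligands act through Smad1 and Smad5 and turn on the Id genes, whose products block basic helix-loop-helix factors. Secreted antagonists trap the ligands, latent TGF-beta binding proteins hold TGF-beta in the matrix, and Smad6 and Smad7 inhibit the pathway inside the cell. In fibroblasts TGF-beta is known for driving matrix production, and in mouse ES cells BMP signals are known to help maintain self-renewal while Nodal signalling acts through the co-receptor Tdgf1 (Cripto).

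Values are processed spot signals scaled so that each array's 75th percentile over non-control spots is 1000, called scaled units below, and they compare arrays for 1 probe, not genes with each other. Where a gene had several probes, the brightest over the 3 arrays stood for it. An error after ± is the scanner software's error model for 1 spot signal on each array, about 10% a signal and 0.20 for a log2 difference of bright signals, and it holds no biological spread. With 1 array a group there was no replicate check and no test, so a difference describes these arrays. A gene counted as higher or lower where its signals differed at least 2-fold, and these words below mean that threshold wherever genes are counted. Where a signal was not well above background, the fold is a bound written "at least", taken against the higher of the dim signal itself and the dimmest well-above-background signal of that array, which was 15.4 scaled units in p53-null MEF, 12.1 in ES cells and 14.9 in MEF.

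The arrays had 60.4% to 64.4% of 43379 non-control spots well above background and no saturated spot. ES cells and MEF shared a slide and a scan, while p53-null MEF lay on another slide scanned separately, so in p53-null MEF against MEF the slide and the group cannot be told apart. Trp53 gave 54.0 scaled units in p53-null MEF, 5877 in ES cells and 1574 in MEF at its brighter probe, which is 29.1-fold lower for p53-null MEF against MEF. Its other probe gave 250 in p53-null MEF, 364 in ES cells and 691 in MEF, 2.76-fold lower for p53-null MEF and 1.89-fold lower for ES cells, and which part of the gene the allele lacks is not given in the sources used here. Of 7 fibroblast markers (Col1a1, Col1a2, Col3a1, Lum, Thy1, Pdgfra and Pdgfrb), all were well above background in p53-null MEF and in MEF, and Lum was not in ES cells. All 6 pluripotency markers (Pou5f1, Nanog, Sox2, Zfp42, Esrrb and Utf1) were well above background in ES cells, against 1 in p53-null MEF (Sox2) and 2 in MEF (Sox2 and Utf1). Of the 49 genes, 46 were well above background in p53-null MEF, 43 in ES cells and 47 in MEF.

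In p53-null MEF against MEF, antagonists and ligand-binding proteins held the largest share of lower genes and the Id targets lay within 2-fold. Of 47 genes with a fold, 16 were lower and 1 was higher, at a median log2 difference of -0.58. Over all 17471 gene labels with a fold, 16.6% were lower and 18.6% were higher, at a median of 0.03. Among the 11231 labels that are current RefSeq symbols these shares were 18.5% and 14.5%. Past 4-fold, 6 of the 47 were lower and 0 higher, beside 4.55% and 5.49% of all labels and 5.22% and 3.8% of RefSeq symbols. All of these directions, here and below, are relative to the array's 75th percentile. Scaling on 7 spike-in probes moved the median of all labels to 2.39 and that of the 49 genes to 1.72. Of 46 genes with a fold 35 were then higher and 1 lower, beside 89.2% and 1.24% of all labels. Among all calls over the labels, the share of higher became 98.6%, against 52.9% with the percentile.

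**Figure D1:**
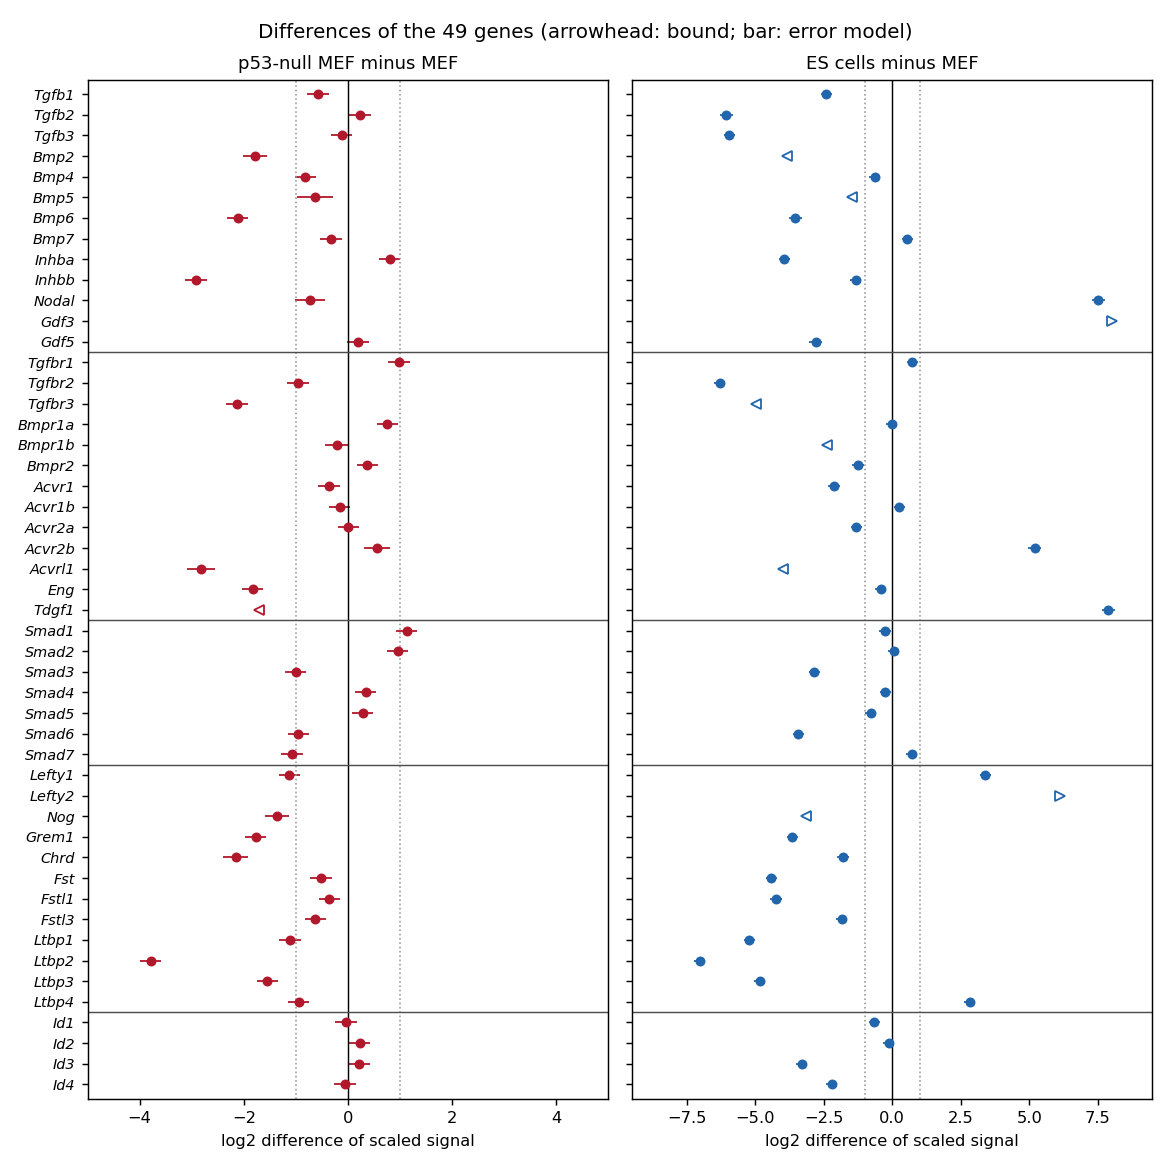
Log2 difference of scaled signal for each gene, in p53-null MEF against MEF (left) and ES cells against MEF (right), grouped from top to bottom as ligands, receptors, Smads, antagonists and binding proteins, and Id targets. Filled points are measured differences with the error model as a bar, arrowheads are bounds and dotted lines mark 2-fold. Most antagonists lie left of 0 in both panels relative to the 75th percentile (spike-in scaling turns the median of the left panel to 1.72), and Nodal, Gdf3, Tdgf1 and Lefty2 lie far to the right in ES cells.

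Of the 11 antagonists and binding proteins with a fold, all had a lower value in p53-null MEF and 7 passed 2-fold, at a median of -1.12 on the log2 scale (16.6% of all labels were lower). These signs hold against the 75th percentile, and most turn with the spike-in shift. Ltbp2, a microfibril protein related to the binding proteins of latent TGF-beta that does not itself bind latent TGF-beta, gave 2196 scaled units in p53-null MEF and 30341 in MEF. It was 13.8-fold lower, a log2 difference of -3.79 ± 0.20, and its probe lies at chr12:85672971-85673030 of mm8. A further probe, named Ltbp2 only in the older design files, was at least 4.77-fold lower. Its relatives that do bind latent TGF-beta were lower by less, with Ltbp3 at 7515 in p53-null MEF and 21967 in MEF (2.92-fold lower) and Ltbp1 at 4748 in p53-null MEF and 10284 in MEF (2.17-fold lower). Ltbp4 differed by -0.95 ± 0.20, and second probes of Ltbp3 and Ltbp1 gave -2.12 and -1.01.

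The BMP antagonist genes Chrd, Grem1 and Nog were also lower in p53-null MEF, on that same scale. Chrd, the chordin gene, gave 39.4 scaled units in p53-null MEF and 175 in MEF, 4.44-fold lower. Grem1, which encodes the BMP antagonist gremlin known from the limb bud, gave 3303 in p53-null MEF and 11276 in MEF, 3.41-fold lower. Nog, the noggin gene, had 51.7 in p53-null MEF and 133 in MEF, 2.57-fold lower, and its log2 difference of -1.36 became -0.77, within 2-fold, under normexp background correction. The activin-binding genes Fst and Fstl3 and the follistatin relative Fstl1 lay within 2-fold, at -0.52, -0.63 and -0.36. Lefty1, an inhibitor of Nodal, had 319 in p53-null MEF and 694 in MEF, while Lefty2 was near background in both.

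**Figure D2:**
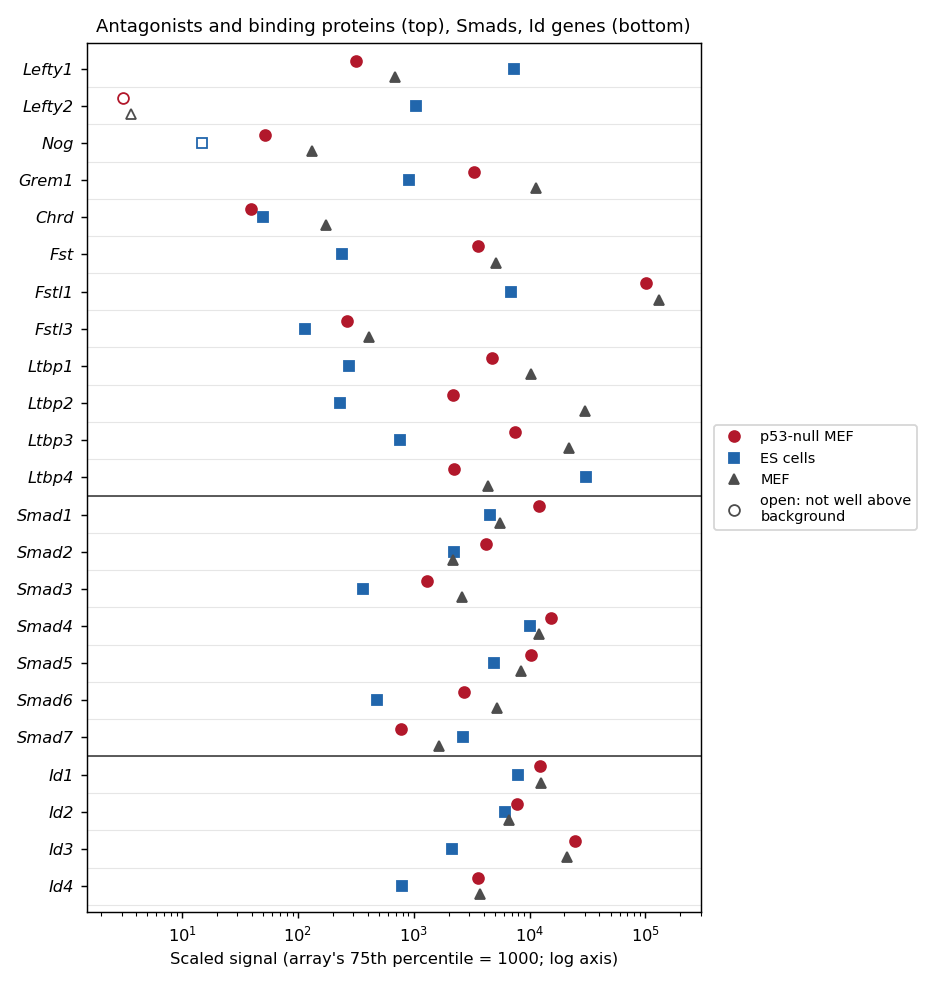
Scaled signal of antagonists and ligand-binding proteins, Smads and Id genes on a log axis, with 1 point per array; open points were not well above background. Relative to the 75th percentile, the p53-null MEF point of Ltbp2 (2196) lies far left of the MEF point (30341) (spike-in scaling moves the median label to 2.39), and the ES cell points of Lefty1 and Ltbp4 lie to the right.

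Among the ligands, Inhbb, which encodes the beta B subunit of activin, was the furthest apart, with 1153 scaled units in p53-null MEF and 8716 in MEF, 7.56-fold lower (-2.92 ± 0.20). Its second probe was at least 16.8-fold lower. Inhba, the beta A subunit gene, had 18018 in p53-null MEF and 10333 in MEF, a difference of 0.80 ± 0.20 within 2-fold, so on this scale the activin subunit genes had opposite signs. Bmp6 had 103 in p53-null MEF and 448 in MEF, 4.35-fold lower, and Bmp2 had 49.96 in p53-null MEF and 173 in MEF, 3.46-fold lower. Bmp4 had 1919 in p53-null MEF and 3380 in MEF, at -0.82 ± 0.20, and Bmp7 was at -0.33 with a second probe at -1.02. The TGF-beta ligand genes showed differences within 2-fold, Tgfb1 at -0.58, Tgfb2 at 0.23 and Tgfb3 at -0.12 on the log2 scale. Nodal, Bmp5 and Gdf5 differed by -0.73, -0.64 and 0.19, and Gdf3 was near background in both. In all, 3 of 12 ligands with a fold were lower and 0 higher, beside 16.6% and 18.6% of all labels.

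Of the 13 receptors and co-receptors, 4 were lower in p53-null MEF and 0 higher, beside 16.6% and 18.6% of all labels, and the 4 were Acvrl1, Tgfbr3, Eng and Tdgf1. Acvrl1, the type I receptor ALK1 of endothelium, gave 27.0 scaled units in p53-null MEF and 191 in MEF, 7.07-fold lower (-2.82 ± 0.26). Eng, its endothelial co-receptor endoglin, gave 187 in p53-null MEF and 666 in MEF, 3.55-fold lower. Tgfbr3, the co-receptor betaglycan, gave 86.9 in p53-null MEF and 382 in MEF, 4.40-fold lower. Apart from Acvrl1, the type I and type II receptor genes lay within 2-fold, where Tgfbr1 was at 0.98 ± 0.20, Bmpr1a at 0.76, Bmpr2 at 0.38, Acvr2a at 0.01 and Tgfbr2 at -0.96 ± 0.20 on the log2 scale. A second Tgfbr2 probe gave -1.68. Other probes gave -0.05 for Bmpr1a, -0.19 and 0.86 for Bmpr2, and 0.22 for Acvr2a. Tgfbr2 passed 2-fold as the mean of its probes (-1.32) and under normexp (-1.11 with the 75th percentile), and Tgfbr1 under median scaling (1.02). The other type I and type II receptor genes lay between -0.36 (Acvr1) and 0.56 (Acvr2b). Tdgf1 gave no signal well above background in p53-null MEF, against 50.5 in MEF, a bound of at least 3.28-fold lower. After normexp correction its difference was -0.88, within 2-fold. Normexp, with the 75th percentile or with quantile scaling, moved 7 of the 17 genes past 2-fold by over 1.5 times. With the 75th percentile it gave -1.55 for Acvrl1, -1.59 for Tgfbr3, -1.51 for Bmp6, -1.15 for Bmp2 and -1.34 for Chrd, beside the values above for Nog and Tdgf1.

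Markers of other cell types moved between these fibroblast arrays as well, and their part in the results was not tested. Of 5 endothelial markers on the array, Pecam1 and Cdh5 stayed near background in both fibroblasts. Relative to MEF, the p53-null array had Tek 8.84-fold lower and Kdr 2.54-fold higher. Tie1 gave 27.3 scaled units in MEF and lay near background in p53-null MEF, a bound of at least 1.78-fold lower. The endothelial list summed to 661 in p53-null MEF and 516 in MEF, of which Kdr made 621 and 244. Over all labels, 16.6% were lower and 18.6% higher, and each sum given here is set mainly by its brightest probes. Cartilage and bone markers were lower for 4 of 6 genes and higher for 1 (Acan, 4.15-fold), with a summed signal of 4922 in p53-null MEF and 14798 in MEF. Neural crest and glial markers were lower for 4 of 4, summing to 598 in p53-null MEF and 5901 in MEF, with Sox10 near background in p53-null MEF. Macrophage markers were lower for 2 of 5 and higher for 1 (Ptprc, at least 2.41-fold). They summed to 273 in p53-null MEF and 2631 in MEF, of which Lyzs made 122 and 2390. Smooth muscle markers were lower for 2 of 5 (Myh11, 5.61-fold, and Des, 2.52-fold) and higher for 1 (Cnn1, 2.42-fold). Fibroblast markers were lower for 3 of 7, summing to 418669 in p53-null MEF and 534858 in MEF. All 4 proliferation markers (Mki67, Top2a, Ccnb1 and Cdc20) were higher, summing to 83394 in p53-null MEF and 12423 in MEF. In such bulk RNA, fewer cells of a type and less RNA per cell cannot be told apart.

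**Figure D3:**
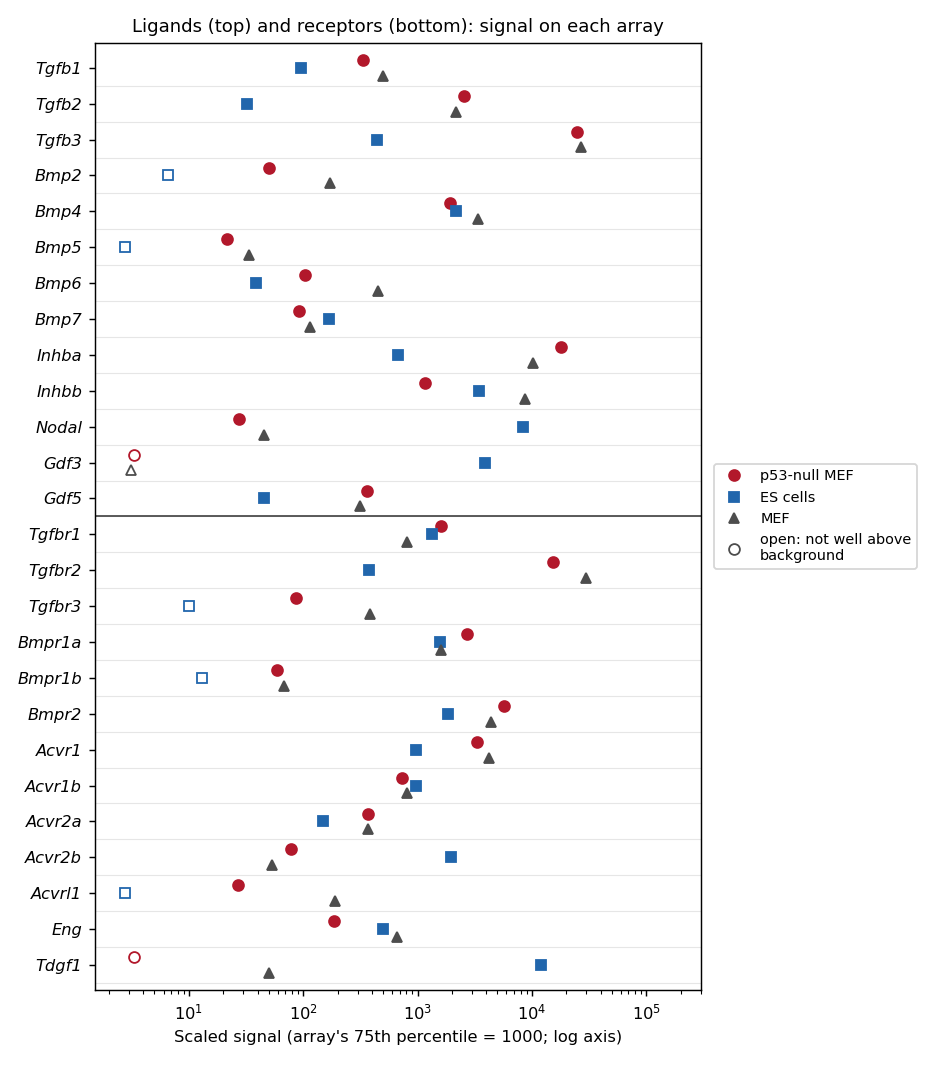
Scaled signal of the ligands (top) and the receptors and co-receptors (bottom) on a log axis, with 1 point per array; open points were not well above background. ES cell points lie far left of the MEF points for Tgfb2, Tgfb3 and Tgfbr2 and far right for Nodal, Gdf3, Acvr2b and Tdgf1, and Acvrl1 and Inhbb are lower for p53-null MEF than for MEF relative to the 75th percentile, where spike-in scaling moves the median label to 2.39.

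Of the 7 Smad genes, 1 was higher and 2 were lower in p53-null MEF, beside 18.6% and 16.6% of all labels, and 5 of the 7 lay at 0.95 or more from MEF on the log2 scale in either direction. Smad1, the BMP-responsive Smad, had 12032 scaled units in p53-null MEF and 5502 in MEF, 2.19-fold higher at 1.13 ± 0.20, but its other probe gave 0.42. Smad3, which carries TGF-beta and activin signals, had 1309 in p53-null MEF and 2629 in MEF, 2.01-fold lower at -1.01 ± 0.20, and its other probes gave -0.95 and -0.13. Smad7, an inhibitory Smad, had 778 in p53-null MEF and 1636 in MEF at -1.07 ± 0.20, and Smad6, the other, differed by -0.95. Smad2 was at 0.95 (1.11 under normexp with the 75th percentile, past 2-fold), Smad4 at 0.34 and Smad5 at 0.28. Other probes gave 0.68 for Smad4, and 1.11 (past 2-fold) and -0.37 for Smad5. Smad1, Smad3 and Smad7 lay closer to 2-fold than the error model's 0.20. Smad1 was within 2-fold as the mean of its probes (0.77), Smad3 under median scaling (-0.96) and Smad7 under normexp with the 75th percentile (-0.99).

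The Id genes, direct BMP targets, were level between the fibroblasts. Id1 had 12205 scaled units in p53-null MEF and 12529 in MEF, and its 2 probes differed from MEF by -0.04 and -0.03. Id2 had 7799 in p53-null MEF and 6672 in MEF, Id3 had 24414 in p53-null MEF and 21062 in MEF, and Id4 had 3552 in p53-null MEF and 3698 in MEF. The differences ran from -0.06 to 0.23, near the error model's 0.20. Second probes of Id2 and Id4 gave -0.08 and 0.41.

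In ES cells against MEF, Tdgf1, Gdf3 and Nodal lay furthest above MEF and Ltbp2 furthest below. Of the 49 genes, 29 were lower and 7 higher in ES cells, at a median log2 difference of -1.81. Over all 18759 gene labels with a fold, 27.3% were lower and 32.9% higher, at a median of 0.21, which spike-in scaling moved to 0.50. The shares among 11960 current RefSeq symbols were 30.9% and 29.7%. By 4-fold, 23 of the 49 were lower and 7 higher, against 15.6% and 16.9% of all labels and 18.7% and 14.9% of RefSeq symbols. Both comparisons use the same MEF array, so they are not independent. Normexp correction, with the 75th percentile or quantile scaling, moved 16 of the 36 genes past 2-fold by over 1.5 times, all toward MEF, bounds included, so the folds and the bounds below depend on the background correction. With the 75th percentile it gave 6.62 for Tdgf1, 6.10 for Nodal, 5.76 for Gdf3, 3.90 for Acvr2b and 3.90 for Lefty2. It gave -4.54 for Tgfb2, -2.59 for Tgfbr3, -2.08 for Bmp6, -1.89 for Acvrl1, -1.74 for Tgfb1, -1.73 for Bmp2 and -1.63 for Gdf5. It gave -1.15 for Nog and -1.10 for Chrd, and the remaining pair, Bmp5 and Bmpr1b, came within 2-fold.

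The 7 higher genes were Nodal, Gdf3, Tdgf1, Acvr2b, Lefty1, Lefty2 and Ltbp4, of which the first 6 are a ligand, a related ligand, a co-receptor, a receptor and the feedback inhibitors of Nodal signalling. Nodal gave 27.2 scaled units in p53-null MEF, 8303 in ES cells and 45.0 in MEF, 184-fold higher in ES cells (7.53 ± 0.23), at a probe on chr10:60820399-60820458 of mm8. Tdgf1 gave 11967 in ES cells and 50.5 in MEF, 237-fold higher (7.89 ± 0.24). Gdf3, a pluripotent-cell ligand, gave 3899 in ES cells and stayed near background in both fibroblasts, so it was at least 261-fold higher. Acvr2b, a type II receptor for activin and Nodal, gave 1955 in ES cells and 53.3 in MEF, 36.7-fold higher. Its probe position spans 1356 bases of mm8 for a probe of 60, as do those of Acvrl1, Chrd, Fst, Ltbp1 and Id3 by fewer bases.

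Lefty1 and Lefty2 encode secreted inhibitors of Nodal, and their probes start 40160 bases apart on chromosome 1 of mm8. Lefty1 gave 319 scaled units in p53-null MEF, 7316 in ES cells and 694 in MEF, 10.5-fold higher in ES cells than in MEF. Lefty2 gave 1036 in ES cells, and stayed near background in p53-null MEF and in MEF, so it was at least 69.4-fold higher. Of this pair, Lefty1 was well above background in both fibroblasts and Lefty2 in neither. Ltbp4 gave 2244 in p53-null MEF, 30765 in ES cells and 4332 in MEF, 7.10-fold higher in ES cells than in MEF, unlike the other genes of its family.

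Promoter windows are shown for the 2 genes with the highest and the 2 with the lowest measured difference between ES cells and MEF among the 34 of 49 genes with a window in the table used, to set their sequences beside their signals. They are RefSeq windows of GRCm38.p6, 250 bases before to 50 after the gene start, read 5′ to 3′ on the gene's strand. Capitals mark matches on either strand to CAGAC (the core of the Smad-binding element), AATNNACA (a FoxH1 motif, FoxH1 being a Smad partner in Nodal signalling), ATGCAAAT (the octamer bound by Oct4) or TGAGTCA (the AP-1 motif), and no printed match overlaps another. The Tdgf1 window is chr9:110946109-110946408 on the minus strand, that of Nodal chr10:61417722-61418021 on the plus strand, that of Ltbp2 chr12:84876442-84876741 on the minus strand and that of Tgfbr2 chr9:116175314-116175613 on the minus strand.
Tdgf1: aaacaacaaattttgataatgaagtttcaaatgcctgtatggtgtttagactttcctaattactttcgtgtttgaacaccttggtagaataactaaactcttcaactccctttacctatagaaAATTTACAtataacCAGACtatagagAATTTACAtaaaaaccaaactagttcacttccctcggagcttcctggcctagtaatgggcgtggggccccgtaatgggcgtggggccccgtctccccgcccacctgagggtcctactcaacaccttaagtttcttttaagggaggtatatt
Nodal: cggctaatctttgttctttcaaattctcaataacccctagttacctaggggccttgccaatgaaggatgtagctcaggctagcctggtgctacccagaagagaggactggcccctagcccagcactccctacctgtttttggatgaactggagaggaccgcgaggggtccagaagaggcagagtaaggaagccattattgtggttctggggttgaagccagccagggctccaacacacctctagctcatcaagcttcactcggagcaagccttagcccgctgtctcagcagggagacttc
Ltbp2: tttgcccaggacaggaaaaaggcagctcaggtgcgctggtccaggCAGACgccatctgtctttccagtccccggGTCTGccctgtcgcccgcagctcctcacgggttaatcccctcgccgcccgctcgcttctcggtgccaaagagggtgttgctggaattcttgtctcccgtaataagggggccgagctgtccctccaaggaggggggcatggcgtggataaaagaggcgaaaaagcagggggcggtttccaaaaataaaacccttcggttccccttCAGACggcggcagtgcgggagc
Tgfbr2: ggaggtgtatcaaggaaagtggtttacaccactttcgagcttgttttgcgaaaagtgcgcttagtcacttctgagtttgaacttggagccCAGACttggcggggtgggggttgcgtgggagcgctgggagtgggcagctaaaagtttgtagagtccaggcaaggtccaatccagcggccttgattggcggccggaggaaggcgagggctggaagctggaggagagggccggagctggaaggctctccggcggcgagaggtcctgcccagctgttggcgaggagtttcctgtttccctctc

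The Tdgf1 window holds AATTTACA at 2 places, starting at positions -127 and -101 from the gene start, with CAGAC between them at -113. The AATNNACA motif occurs in 12.2% of 32851 windows in the table and in 1 of the 34 listed genes that have a window, Tdgf1. The Nodal window holds no match to any of the 4 motifs, and those of Ltbp2 and Tgfbr2 hold 3 and 1 matches to CAGAC. This short core is found in 49.6% of all windows and in 18 of the 34 genes. For each motif a gene was counted if any of its windows held a match, so counts of genes and shares of windows are not like measures. The octamer was found in 1.74% of all windows and in 0 of the 34, and the AP-1 motif in 5.20% and in 1 of 34. Tdgf1 has 41.7% G and C in its window, Nodal 54.0%, Ltbp2 61.0% and Tgfbr2 59.0%. The median was 52.7% over all windows and 64.3% over the 34 genes, each at its first listed window. These are matches of letters, not measured sites.

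The 3 TGF-beta ligand genes and Tgfbr2 were lower in ES cells. Tgfb2 gave 2531 scaled units in p53-null MEF, 32.4 in ES cells and 2153 in MEF, 66.5-fold lower in ES cells than in MEF (-6.06 ± 0.24). Tgfb3 gave 24835 in p53-null MEF, 438 in ES cells and 26985 in MEF, 61.6-fold lower in ES cells. Tgfb1, printed at 10 spots with a spread of 3.13% to 8.01% between spots, gave 95.1 in ES cells and 502 in MEF, 5.28-fold lower. Tgfbr2, the type II receptor that binds TGF-beta, gave 15291 in p53-null MEF, 378 in ES cells and 29724 in MEF, 78.6-fold lower in ES cells (-6.30 ± 0.20), at a probe on chr9:115936735-115936794 of mm8. A dimmer Tgfbr2 probe was at least 11.6-fold lower, the mean of the Tgfbr2 probes was at -4.92, and Tgfbr3 at least 31.6-fold lower. By contrast Tgfbr1, the type I receptor, gave 1333 in ES cells and 806 in MEF, at 0.73 ± 0.20.

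The residual signals of Tgfb2, Tgfb3 and Tgfbr2 in ES cells lay within the range of the fibroblast markers, and that of Tgfb1 lay above it. Tgfb2, Tgfb3 and Tgfbr2 stood in ES cells at 1.504%, 1.62% and 1.27% of their MEF signals, while Col1a1 stood at 1.54%, Col1a2 at 1.26%, Pdgfra at 1.42%, Pdgfrb at 0.980%, Col3a1 at 0.313% and Thy1 at 4.23%, and Lum, near background in ES cells, was at least 1059-fold lower. All 7 fibroblast markers were lower in ES cells, summing to 7284 scaled units in ES cells and 534858 in MEF. Ltbp1, Ltbp2 and Ltbp3 stood at 2.68%, 0.762% and 3.49% of their MEF signals, also within the range of those markers. The Tgfb2 share depends on the background correction, since its log2 difference of -6.06 became -4.54 under normexp with the 75th percentile. Whether fibroblasts in the ES cell culture gave these residual signals was not tested. Several pathway genes stood far above those shares, with Tgfb1 at 18.9%, Inhbb at 39.9%, Bmp4 at 63.9% and Eng at 74.5% of the MEF signal.

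BMP ligands were lower or level in ES cells. Bmp4, the BMP known for supporting mouse ES cells, gave 2161 scaled units in ES cells and 3380 in MEF (-0.65 ± 0.20), with a spread between its 10 spots of 2.70% to 4.31%. Bmp7 gave 169 in ES cells and 115 in MEF (0.56 ± 0.21). Bmp6 gave 38.6 in ES cells and 448 in MEF, 11.6-fold lower, while Bmp2 and Bmp5 were near background in ES cells, at least 14.3-fold and 2.78-fold lower. Gdf5, known from joint formation, gave 359 in p53-null MEF, 45.1 in ES cells and 314 in MEF, 6.95-fold lower in ES cells. Inhba gave 671 in ES cells and 10333 in MEF, 15.4-fold lower, and Inhbb gave 3474 in ES cells and 8716 in MEF, 2.51-fold lower. In all 9 of 13 ligands were lower and 2 higher, beside 27.3% and 32.9% of all labels.

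Among BMP and activin receptors, 2 type I receptor genes were close to MEF. Bmpr1a, the widely expressed type I BMP receptor, gave 1585 scaled units in ES cells and 1604 in MEF, and Acvr1b, the type I receptor of activin and Nodal, 977 in ES cells and 815 in MEF. Acvr1, a type I receptor for BMPs, gave 3303 in p53-null MEF, 975 in ES cells and 4252 in MEF, 4.36-fold lower in ES cells. The type II receptor genes Bmpr2 and Acvr2a were 2.37-fold and 2.48-fold lower. Acvr2a was within 2-fold as the mean of its probes (-0.88) and under normexp with the 75th percentile (-0.98). Bmpr1b gave 59.3 in p53-null MEF, 13.1 in ES cells and 68.5 in MEF, and was 5.21-fold lower, and Acvrl1 at least 15.8-fold lower, both being near background in ES cells. For Bmpr1b, and for Nog below, the dim signal itself exceeded the lowest signal well above background, so that fold is the measured one and no strict minimum. Under normexp with the 75th percentile Bmpr1b was at -0.73 and Bmp5 at -0.48, within 2-fold.

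**Figure D4:**
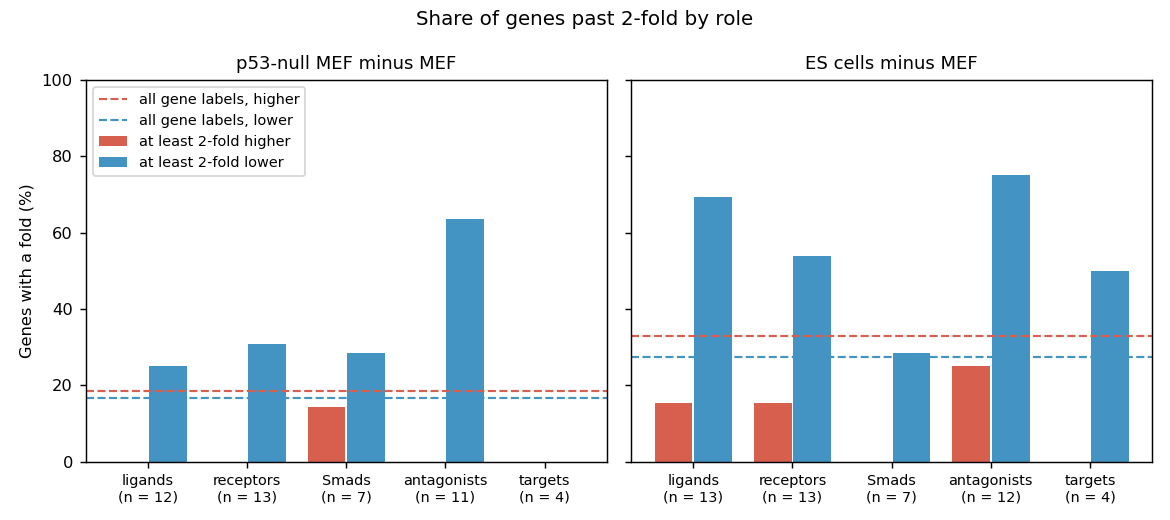
Share of genes at least 2-fold higher (red) or lower (blue) by role in p53-null MEF against MEF (left) and ES cells against MEF (right), with dashed lines for the same shares over all gene labels. Relative to the 75th percentile, 63.6% of antagonists and binding proteins are lower in p53-null MEF and 75% in ES cells, beside 16.6% and 27.3% of all labels. In p53-null MEF, spike-in scaling leaves 1 of 46 genes with a fold lower, beside 1.24% of all labels.

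Secreted antagonists and matrix-binding proteins were lower in ES cells for 9 of 12 genes and higher for the other 3 (27.3% and 32.9% of all labels), which are Lefty1, Lefty2 and Ltbp4. Ltbp2 gave 231 scaled units in ES cells and 30341 in MEF, 131-fold lower (-7.04 ± 0.20), the furthest below MEF of the 49. Ltbp1 gave 275 in ES cells and 10284 in MEF, 37.4-fold lower, and Ltbp3 gave 767 in ES cells and 21967 in MEF, 28.6-fold lower. Ltbp1 and Ltbp3 hold latent TGF-beta in the matrix. Fst, which traps activin, gave 3558 in p53-null MEF, 238 in ES cells and 5088 in MEF, 21.4-fold lower in ES cells. Fstl1 gave 101835 in p53-null MEF, 6885 in ES cells and 130675 in MEF, 19.0-fold lower in ES cells. Fstl3, which also binds activin, was 3.59-fold lower. Grem1 gave 904 in ES cells and 11276 in MEF, 12.5-fold lower. Nog gave 14.8 in ES cells and 133 in MEF, 8.96-fold lower, and Chrd gave 49.7 in ES cells and 175 in MEF, 3.52-fold lower.

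The Smads for BMP and the shared Smad4 lay within 2-fold of MEF at their brightest probes, whereas Smad3 and Smad6 were lower in ES cells. Smad3 gave 364 scaled units in ES cells and 2629 in MEF, 7.22-fold lower, and its 3 probes ran from -3.29 to -2.54. Smad2, the other TGF-beta and Nodal Smad, gave 2235 in ES cells and 2161 in MEF, at 0.05 ± 0.20. Smad6 gave 486 in ES cells and 5258 in MEF, 10.8-fold lower, and Smad7 gave 2681 in ES cells and 1636 in MEF at 0.71 ± 0.20, so the inhibitory Smads differed in opposite directions. Smad1 was at -0.26, Smad4 at -0.26 and Smad5 at -0.79 (-1.01 under median scaling), with other probes of Smad4 and Smad5 at 0.88 and at -1.24 and 0.22.

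Id genes split in ES cells. Id1 gave 7933 scaled units in ES cells and 12529 in MEF (-0.66 ± 0.20), and Id2 gave 6102 in ES cells and 6672 in MEF (-0.13 ± 0.20). Id3 gave 2123 in ES cells and 21062 in MEF, 9.92-fold lower (-3.31 ± 0.20), at a probe on chr4:135416236-135416410 of mm8. Id4 gave 798 in ES cells and 3698 in MEF, 4.64-fold lower, and its other probe differed by -2.24. Thus Id1 and Id2 lay within 2-fold of MEF while Id3 and Id4 did not.

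**Figure D5:**
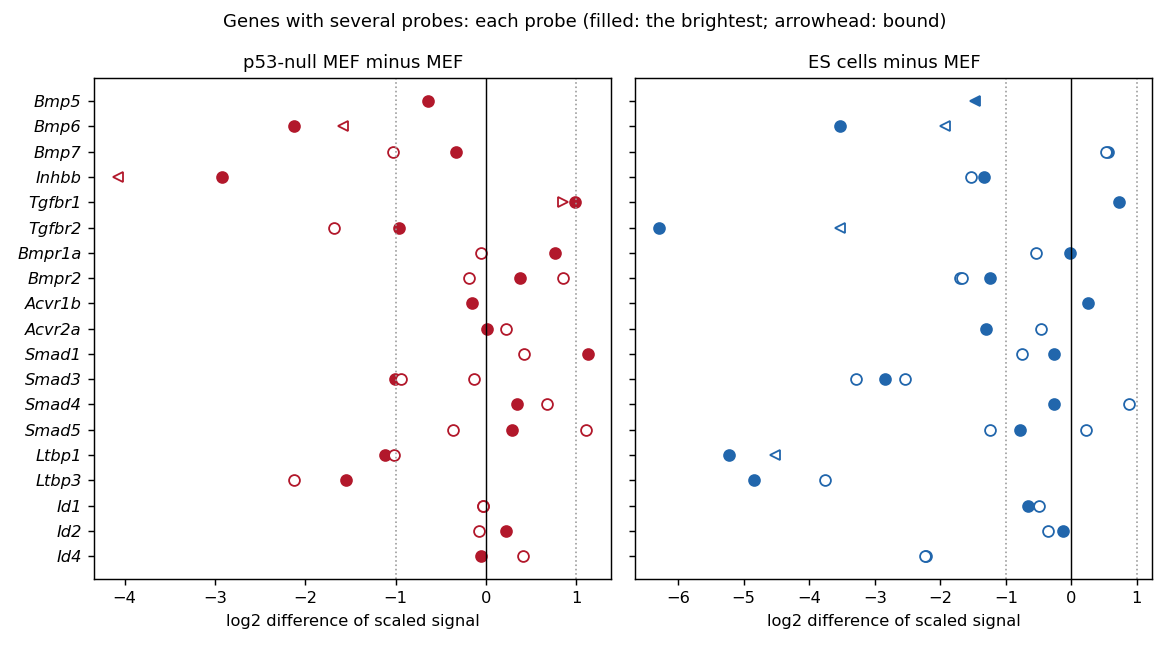
Log2 difference at each probe of the 19 genes with several probes, in p53-null MEF against MEF (left) and ES cells against MEF (right); filled symbols are the brightest probe, open symbols the others, arrowheads bounds and dotted lines 2-fold. Probes of Id4 nearly coincide in ES cells, those of Smad5 lie on both sides of 0 in both panels, and signs in the left panel are relative to the 75th percentile, since spike-in scaling moves the median label to 2.39.

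Probes of 1 gene differed from each other, which the error model does not cover and whose cause was not tested. Among 17 genes with several probes carrying a fold in p53-null MEF against MEF, the range between probes had a median of 0.57 on the log2 scale and reached 1.48 for Smad5. In ES cells against MEF it had a median of 0.61 over 16 genes and reached 2.76 for Tgfbr2, where a bound enters. Some of these ranges set a bound beside a measured difference. No gene had probes at least 2-fold apart from MEF in opposite directions.

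Other genes of the pathway, taken from a list of 92 of which 87 were on the array, are described by the same counts. In p53-null MEF against MEF, 15 of 73 with a fold were lower and 10 higher, at a median of -0.26 (16.6% and 18.6% of all labels). Gdf15, a stress-induced ligand that p53 is known to activate, gave 149 scaled units in p53-null MEF and 1543 in MEF, 10.3-fold lower. Dcn was 5.76-fold lower and Pcsk6, a protease that cleaves Nodal and BMP precursors, 5.74-fold lower. Bmp8a and Gdf10 were 4.73-fold and 4.67-fold lower. Amhr2 was 16.1-fold higher, the T-box factor gene Eomes at least 8.87-fold and Tgif2, which encodes a Smad corepressor, 4.32-fold higher. Among 15 response genes, 3 were higher and 2 lower, at a median of 0.21. Relative to the 75th percentile 7 of 24 extracellular genes were lower and 2 higher, and these signs too move with the spike-in shift.

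In ES cells against MEF, 45 of 75 other pathway genes with a fold were lower and 8 higher, at a median of -1.85 (27.3% and 32.9% of all labels). Extracellular genes were lower for 20 of 24 and higher for 0. Response genes were lower for 11 of 16 and higher for 1, at a median of -2.19. The microfibril genes Fbn1 and Fbn2, whose products anchor latent TGF-beta complexes, were 205-fold and 183-fold lower, and Thbs1, a TGF-beta activator, 141-fold lower. Nbl1, a BMP antagonist, was 99.2-fold lower. The Smad corepressor genes Skil and Tgif2 were 9.14-fold and 6.12-fold higher, and Eomes was at least 8.98-fold higher. Amhr2, the receptor for anti-Müllerian hormone, was 48.4-fold higher in ES cells, with 866 scaled units in p53-null MEF, 2601 in ES cells and 53.8 in MEF, while its ligand gene Amh was near background in all 3.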

How the data were processed

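Spot intensities, linear and not logged, come from the deposited scanner files, made by the authors in Feature Extraction 9.5.3.1 according to the file headers. Their processed signal is background-subtracted and corrected for trends within an array, per the file headers. The authors' value table of the series held the same intensities, at 0.995 to 1.005 times the processed signal and medians of 51.8 for p53-null MEF, 50 for ES cells and 43.2 for MEF, so it carries no log, no centring and no direction. Positions are those of the p53-null MEF file, which cites mm8; the other files cite mm7. Exons and untranslated regions were not assigned to probes, since no genome of that build was used.

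The 75th percentile of log2 processed signal, over an array's 43379 non-control spots, was subtracted from that array, with its 1639 control spots left out. Spots of a probe were then averaged, leaving out 62 to 192 spots per array that the software marked as outliers. A probe was counted as detected where 50% or more of the spots left carried the software's well-above-background mark. Values were computed with Python 3.11.15, pandas 2.3.3 and, for normexp with an offset of 50, limma 3.58.1; the steps were tested on simulated data. The accession of 66 of the 74 probes matched the same symbol in RefSeq, and 8 accessions were not in that table. The members and lists were chosen with earlier results of these data known. Genes at least 4-fold different in a comparison were named with their signals, with others of their family, and at most 5 further pathway genes per direction. Alternatives were median, quantile and spike-in scaling, normexp correction, no filter on dim probes, the mean of all probes and the authors' value table. Without replicates the number of arrays limits the precision, and no test was made.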

Additional observations from a re-analysis of the deposited data

How the results depend on the processing

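In p53-null MEF against MEF, the count of 16 lower genes stayed between 14 and 16 under every alternative except scaling on spike-ins, where it was 1. The share of all labels that were lower ran from 10.2% (normexp with quantile normalization) to 16.6% under those alternatives, and was 1.24% with spike-ins. The count of 1 higher gene was 2 with median scaling and with both normexp settings, 0 with the mean of all probes and 35 with spike-ins. The share of all labels that were higher was 19.6% with median scaling, 12.0% and 12.2% with normexp, 17.9% with the mean of all probes and 89.2% with spike-ins. The median of -0.58 became -0.37 under normexp with the 75th percentile, and turned to 1.72 with spike-ins, when the all-label median was 2.39. Of 17 genes called, 12 stayed past 2-fold under all 7 alternatives other than spike-ins, and the exceptions were Tdgf1, Smad1, Smad3, Smad7 and Nog.

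In ES cells against MEF, the count of higher genes was 7 under every alternative but spike-ins, where it was 9, and that of lower genes ran from 26 to 30. Over all labels the higher share ran from 24.5% to 33.0%, and was 38.7% with spike-ins, while the lower share ran from 21.0% to 31.1%. The median of -1.81 was -2.04 with median scaling, -1.15 under normexp with the 75th percentile, -1.22 with normexp and quantile normalization and -1.52 with spike-ins. The cause of these shifts was not tested. Of 36 genes called, 33 stayed past 2-fold under the 7, and the exceptions were Bmp5, Bmpr1b and Acvr2a. No called gene reversed under the 7, and no array could be left out, with 1 array a group. No paired analysis was possible because each group has 1 array. Dim signals, such as those of Bmp5 and Nog, limit how large a fold could be read.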
